A study of Mus musculus with 300 samples.

Results

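Cells in S phase outside G2/M were described among early thymic progenitors (ETPs), the first T-lineage-biased cells of the thymus, of the E15.5 mouse embryo. The members were 58 cells, 22.2% of those in the deposited expression matrix, which has values for all but 39 of the 300 labelled cells. They were chosen by their own expression values. The 87 cells with the highest mean log2 value of Aurkb, Pbk, Ccnf, Cdca5, Espl1, Aurka, Cdk1, Ccnb1 and Top2a were set aside first and are called G2/M cells. Of the cells left, the 58 with the highest mean of Mcm3, Mcm5, Mcm6, Ccne2, Cdc6, Rrm2 and E2f8 are called S-high cells and are the members. The 58 with the lowest mean are called S-low cells, and the 58 between them middle cells. The 16 genes of this rule are given as a description only, without a test.

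All cells came from the embryonic thymus of 5x polychromILC mice, a strain that carries reporters at lymphoid transcription factor genes, Id2, Gata3, Rora and Bcl11b among them. All groups carry these alleles, and there is no other genotype or treatment. The labels give 4 mouse ids but neither the sort gate nor the number of embryos behind an id, and the 39 cells without values were not analysed here. Single cells were sorted into plates and made into Smart-seq2 libraries from oligo-dT-primed cDNA. The S-high cells numbered 17 of 67 in mouse 1A, 12 of 69 in 1B, 18 of 64 in 2A and 11 of 61 in 2B. By plate, 15 of the S-high cells lay on AF1, 21 on AF2, 19 on JW7 and 3 on JW8.

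In S phase a cell copies its genome once. The Mcm2 to Mcm7 proteins are loaded on origins by Orc, Cdc6 and Cdt1 before S phase, kinases and Cdc45 then start the helicase, and polymerases with the clamp Pcna copy both strands. Many of the genes involved are activated by E2F transcription factors as cells pass from G1 into S phase, with cyclin E and its kinase acting at the same step. Mitosis genes, such as Plk1 and Cdc20, reach their highest transcript levels later, in G2 and M phase. In the thymus, ETPs are known to divide extensively before they commit to the T lineage.

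The E2F-type letters TTTNNCGC were counted on both strands of the 300 bases around each gene's start (250 before and 50 after it), with promoter sequences from RefSeq on GRCm38.p6. They stood in 5.17% of all 32851 promoters in the table. A gene was counted when any of its promoters held the letters. This was so for 5.93% of the 27025 genes in the table and 9.88% of the 8936 matched genes tested here. Of the 6 matched S-phase genes of the rule, 4 held them. The promoters with 2 or more matches among the S-phase rule genes and the fixed S-phase markers are shown because these genes chose or mark the cells; capitals show the matched letters, and each runs 5′ to 3′ on the strand of the gene. Mcm6 (chr1:128359656-128359955, minus strand) has 3 matches, of which 2 overlap on opposite strands; Mcm3 (chr1:20820263-20820562, minus strand) has 2; Mcm5 (chr8:75109259-75109558, plus strand) has 2 that overlap; and Mcm7 (chr5:138171834-138172133, minus strand), a marker outside the rule, has 2.
Mcm6: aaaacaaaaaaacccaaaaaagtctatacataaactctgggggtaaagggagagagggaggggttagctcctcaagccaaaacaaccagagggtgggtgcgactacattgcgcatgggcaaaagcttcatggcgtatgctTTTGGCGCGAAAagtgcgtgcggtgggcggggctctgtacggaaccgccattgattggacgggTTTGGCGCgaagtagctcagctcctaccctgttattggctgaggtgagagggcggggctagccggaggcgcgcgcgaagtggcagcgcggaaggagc
Mcm3: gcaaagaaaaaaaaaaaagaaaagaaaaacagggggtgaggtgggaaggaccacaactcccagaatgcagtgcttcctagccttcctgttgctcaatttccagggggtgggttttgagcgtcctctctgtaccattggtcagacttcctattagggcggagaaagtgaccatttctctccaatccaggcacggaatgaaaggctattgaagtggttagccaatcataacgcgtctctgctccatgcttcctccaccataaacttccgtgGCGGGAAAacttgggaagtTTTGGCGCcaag
Mcm5: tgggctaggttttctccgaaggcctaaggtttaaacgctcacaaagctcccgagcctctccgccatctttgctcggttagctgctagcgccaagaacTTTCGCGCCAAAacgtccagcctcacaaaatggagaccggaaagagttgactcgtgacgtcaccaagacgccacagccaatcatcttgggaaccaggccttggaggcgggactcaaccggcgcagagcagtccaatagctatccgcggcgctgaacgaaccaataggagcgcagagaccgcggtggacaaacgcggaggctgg
Mcm7: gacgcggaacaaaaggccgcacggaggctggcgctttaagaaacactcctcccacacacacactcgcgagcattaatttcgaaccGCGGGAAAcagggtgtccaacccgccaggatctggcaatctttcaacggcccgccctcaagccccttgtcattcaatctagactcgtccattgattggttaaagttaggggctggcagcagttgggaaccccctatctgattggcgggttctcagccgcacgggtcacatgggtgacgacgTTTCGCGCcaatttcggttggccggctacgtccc
A match is a string of letters and not a measured binding site. By gene list, 9 of 24 matched replication fork genes (37.5%) and 6 of 16 origin licensing and helicase genes (37.5%) held the letters. So did 8 of 18 E2F and G1/S genes (44.4%) and 6 of 15 chromatin assembly genes (40%). The shares were lower for checkpoint and repair, with 5 of 19 (26.3%), and for nucleotide synthesis, with 3 of 19 (15.8%). In contrast, 0 of 29 mitosis genes and 0 of 17 arrest and quiescence genes held them, although 3 of 7 G2/M genes of the rule did (42.9%). Of ribosome biogenesis genes, 5 of 13 held them (38.5%).

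The selection scores formed a continuum. The S-phase score ran from 7.32 to 9.65 in S-high cells (median 8.38), from 5.04 to 7.26 in middle cells and from 0.54 to 4.97 in S-low cells. The lowest 3 members had scores of 7.37, 7.36 and 7.32, and the next 3 cells outside had 7.26, 7.25 and 7.25, so no gap separates members from the middle cells. At the other threshold, the last 3 G2/M cells inside had G2/M scores of 6.30, 6.28 and 6.25, and the first 3 outside had 6.21, 6.21 and 6.14. The G2/M score of S-high cells had a median of 4.33 (0.43 to 6.21), against 0.94 (-0.18 to 5.90) in S-low cells and 7.84 (6.25 to 9.20) in G2/M cells. Some S-low cells thus lay near the G2/M threshold. The G2/M cells also carried high S-phase scores, with a median of 7.46 (2.58 to 10.2).

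**Figure D1:**
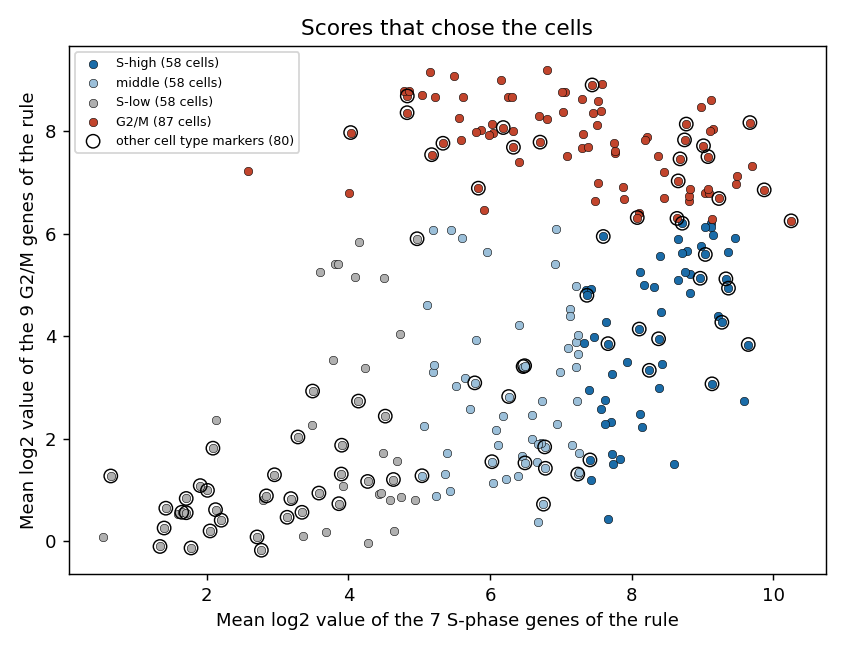
Mean log2 value of the 7 S-phase genes (x axis) against that of the 9 G2/M genes (y axis) for each cell, coloured by group, with a ring around the 80 cells that carry strong markers of another cell type. The 58 S-high cells border the middle cells at a score of 7.32, and some border the G2/M cells at 6.21.

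Among the rule genes, Rrm2, which encodes the small subunit of ribonucleotide reductase, averaged 9.02, 9.22, 9.0 and 8.88 in the S-high cells of mice 1A, 1B, 2A and 2B, against 1.99, 2.01, 1.34 and 1.57 in their S-low cells. Cdc6, the licensing factor, averaged 8.07, 8.41, 8.29 and 7.55 against 1.10, 0.01, 2.16 and 0.64. Ccne2, a cyclin E, averaged 5.84, 6.51, 6.01 and 6.43 against 0.77, 0.44, 0.47 and 1.00. The S-high means lay far above the S-low means in every mouse for these genes, which were among those that chose the cells. E2f8, an atypical E2F repressor, was uneven among the members, with means of 1.81, 4.18, 5.45 and 4.46 and detection in 41 of the 58 cells. In mouse 1A its S-high mean of 1.81 stood closest to the S-low mean, which was 1.11. Cdk1, one of the G2/M rule genes, averaged 5.48 ± 0.89 (SD, n = 4 mice) in S-high cells, between 1.71 ± 0.66 in S-low and 8.22 ± 0.31 in G2/M cells.

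All values are the deposited log2 values, and a difference is the mean of one group's cells minus that of the other inside each mouse, averaged over the 4 mice. Levels are not compared between genes, since nothing says whether they were scaled per length. Cells were not used as replicates, and p-values are from limma over the 4 mouse differences, adjusted with Benjamini-Hochberg over 12423 genes at 0.05. Since nothing states that mouse ids are separate animals, p measures only the spread between these 4 ids. Genes outside the rule did not choose the cells, but they are read from the same cells as the rule genes and share each cell's depth.

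Depth differed between the groups. Read counts per cell are not in the matrix, so the number of detected genes stands for depth. S-high cells had on average 7659, 7512, 7904 and 8072 detected genes in mice 1A, 1B, 2A and 2B, against 6111, 6494, 7196 and 7338 in S-low cells. The S-high mean was higher in 4 of 4 mice, by 1002 ± 390 (SD, n = 4; exact two-sided sign-flip test, p = 0.125, the smallest this design allows). Against G2/M cells it was lower in 4 of 4 mice (-386 ± 66.1, exact p = 0.125). The mitochondrial share was 0.632 ± 0.418 percentage points higher in S-high than in S-low cells (exact p = 0.125) and differed by -0.0555 ± 0.361 from G2/M cells (exact p = 0.875).

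Markers of other cell types also differed between the groups. A cell was counted as carrying them when a share of at least 0.5 of the fixed markers of dendritic, macrophage, basophil and mast, or NK and innate cells reached a linear value of 10 above their level at no reads. This held for 15 of 58 S-high cells, 11 of 58 middle cells, 32 of 58 S-low cells and 22 of 87 G2/M cells. Dendritic markers accounted for 21 of the S-low cells and 2 of the S-high cells. Of the 15 S-high cells, 10 came from mouse 2A, where 18 members lay, and 8 of the 15 carried NK and innate markers. The part of depth and of these cells in each difference was not tested separately; values with depth and plate adjusted, and with those cells left out, are given for most lists and for some genes.

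**Figure D2:**
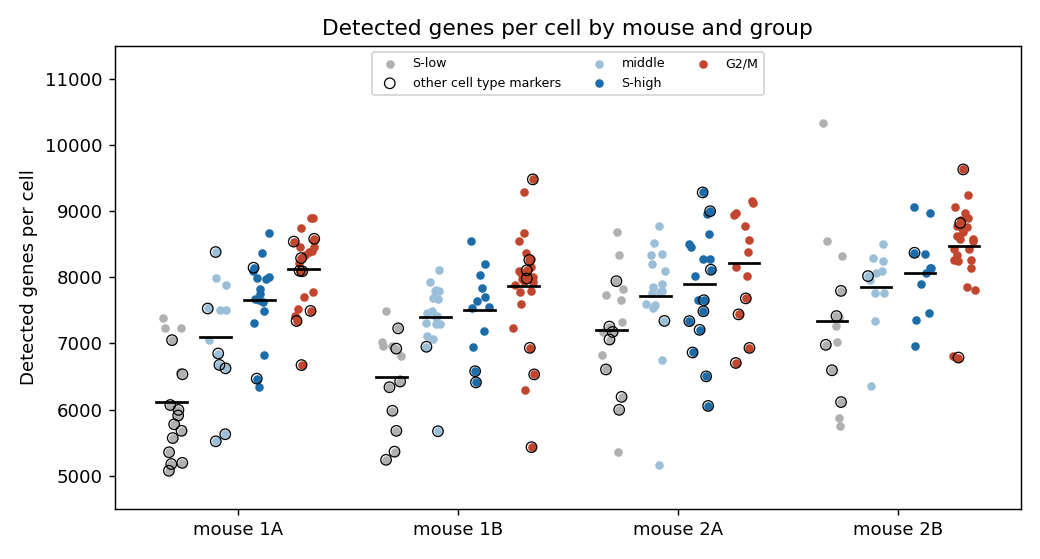
Detected genes in each cell (y axis) by mouse and group (x axis), with a bar at each mean and a ring around cells with markers of another cell type. In each mouse the mean rises from S-low to middle, S-high and G2/M cells, and rings mark 12 of the 16 S-low cells of mouse 1A.

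S-high cells had more of the replication, nucleotide and chromatin assembly transcripts than S-low cells in every mouse. Over 12423 genes, 1640 were higher in S-high cells (13.2%) and 0.829% lower, with a median difference of 0.42 over all genes. In the 6 lists of S-phase and G1/S genes, 85.4% of the genes outside the rule were higher, with a median difference of 2.97. With detected genes and plate as covariates inside each mouse, 49 genes were higher (0.394%) and 1 lower (0.00805%), the median over all genes was 0.10, and 35 of the 49 belonged to the 6 lists. Without the cells that carry markers of other types, limma called 0 of 12423 genes, with 1960 at an unadjusted p under 0.05 and a smallest adjusted p of 0.0546; 26 S-low cells were left, 4 of them in mouse 1A. In that fit the genes of the 6 lists had a median difference of 2.10, with 95.6% of them positive, against 0.27 over all genes. Leaving out 1 mouse gave 582 calls in both directions without 1A, 387 without 1B, 1310 without 2A and 541 without 2B, against 1743 with all 4.

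**Figure D3:**
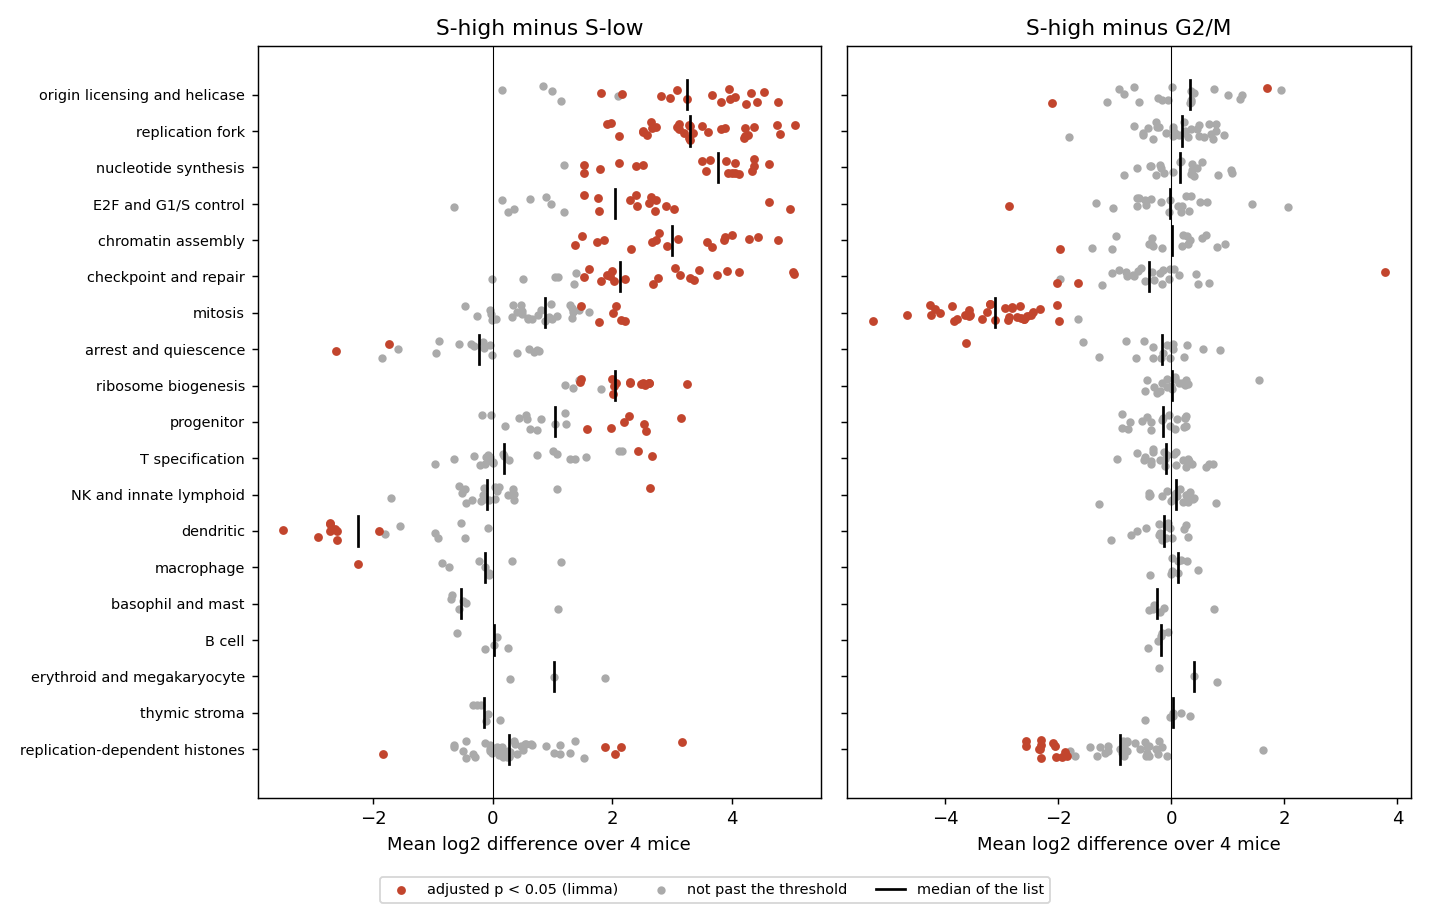
Mean log2 difference of each gene (x axis) by gene list (y axis), for S-high minus S-low cells on the left and S-high minus G2/M cells on the right; red points passed limma's adjusted p of 0.05 and bars mark the list medians. The 6 upper lists lie at medians of 2.04 to 3.77 on the left and -0.39 to 0.34 on the right, while mitosis genes lie at 0.88 and -3.11.

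Origin licensing and helicase genes were higher in S-high cells for 16 of 21 members, with a list median of 3.26 (2.44 and 6 of 21 called with the covariates, 2.49 and 0 called without cells of other types). Mcm2, a subunit of the replicative helicase, averaged 10.29, 9.96, 10.06 and 9.92 in S-high cells and 5.90, 5.51, 7.28 and 6.27 in S-low cells. Every S-high mouse mean of Mcm2 lay above every S-low mouse mean, which was the case for 19.7% of all genes tested. The difference was 3.82 ± 0.78 (adjusted p = 0.00337). Cdc45, which joins Mcm and GINS in the active helicase, averaged 5.05, 6.79, 6.65 and 5.26 against 1.61, 0.34, 1.80 and 0.91 (4.77 ± 1.26, adjusted p = 0.00341). It was detected in 52 of 58 S-high and 29 of 58 S-low cells. Cdc7, the kinase that fires origins, was higher by 4.54 ± 0.69 (adjusted p = 0.00184), whereas its activator Dbf4 did not pass the test (0.99, adjusted p = 0.0812). Cdt1, the loading factor, and its inhibitor Gmnn were both higher, by 4.42 ± 0.63 and 4.06 ± 0.53. The other members that did not pass were Gins3, Orc2, Orc4 and Orc5, with differences from 0.15 (Orc4) to 2.09 (Orc2).

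Replication fork genes were higher for 30 of 30 members, with a median difference of 3.30 and single values from 1.91 to 5.07. In all 30 every S-high mouse mean lay above every S-low mouse mean, which was the case for 19.7% of all genes tested. With the covariates 12 of 30 were called and the median was 2.79; without cells of other types it was 2.66 with 0 called. Fen1, the flap nuclease of Okazaki fragments, averaged 8.65, 9.05, 8.84 and 8.22 in S-high and 3.70, 2.89, 4.28 and 3.62 in S-low cells (5.07 ± 0.74, adjusted p = 0.00184). Pcna, the sliding clamp, averaged 9.77, 9.73, 9.89 and 9.77 against 5.76, 6.62, 7.15 and 6.5 (3.28 ± 0.53, adjusted p = 0.00361). Its S-high means lay closer together (SD 0.07) than its S-low means (SD 0.57). Prim1, a primase subunit, differed by 4.81 ± 0.75, and Wdhd1, which links helicase and polymerase, by 4.76 ± 0.77. Lig1, the ligase that seals Okazaki fragments, differed by 4.22 ± 0.45. Pola1, the catalytic subunit of polymerase alpha, differed by 2.65 ± 0.40 and was not called with the covariates (1.88, adjusted p = 0.182).

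Nucleotide synthesis genes were higher for 19 of 20 members, with a median difference of 3.77, the largest of the 19 lists. With the covariates 6 of 20 were called (median 2.45), and without cells of other types 0 (median 2.38). Tyms, thymidylate synthase, averaged 7.45, 7.51, 7.86 and 7.49 in S-high cells and 2.86, 2.43, 2.61 and 3.89 in S-low cells (4.63 ± 0.74, adjusted p = 0.00184). It was detected in 58 of 58 S-high and 46 of 58 S-low cells. Dck, the deoxycytidine kinase of the salvage pathway, differed by 4.38 ± 0.67 and Ctps, CTP synthase, by 4.37 ± 0.97. Rrm1, the large subunit of ribonucleotide reductase, differed by 4.13 ± 0.88, and Tk1, thymidine kinase, by 3.91 ± 0.69. Nme1, a nucleoside diphosphate kinase, was the 1 member that did not pass (1.20, adjusted p = 0.0698).

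Genes of E2F and G1/S control were higher for 14 of 22 members (median 2.04; 3 of 22 and 1.46 with the covariates; 0 and 1.03 without cells of other types). Ccne1, a cyclin E outside the rule, averaged 4.98, 5.59, 6.12 and 5.65 in S-high cells and 0.62, 0.43, 0.56 and 0.88 in S-low cells (4.97 ± 0.51, adjusted p = 0.00184). S-high means were thus high in every mouse and S-low means near the level at no reads, with detection in 51 and 19 of 58 cells. Middle cells stood between them at 1.75, 2.13, 2.38 and 3.28. Mybl2, a transcription factor of S phase and G2, differed by 4.62 ± 0.69, Rbl1, an E2F-binding pocket protein, by 2.61 ± 0.78, and E2f1 itself by 2.40 ± 0.64. The D-type cyclins, which act earlier in G1, did not pass: Ccnd1 differed by -0.64 ± 1.43, Ccnd2 by 0.98 ± 0.72 and Ccnd3 by 0.89 ± 0.79. E2f2, E2f7, Rb1, Cdkn2c and Cdkn2d did not pass either, with differences from 0.15 (Cdkn2d) to 1.20 (E2f7).

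Chromatin assembly genes were higher for 18 of 18 members (median 3.01), of which 5 were called with the covariates (median 2.49) and 0 without cells of other types (median 1.81). Uhrf1, which recruits the maintenance methyltransferase to newly copied DNA, averaged 9.78, 10.17, 10.09 and 9.63 in S-high and 5.11, 4.67, 5.81 and 4.96 in S-low cells (4.78 ± 0.52, adjusted p = 0.00184). The methyltransferase itself, Dnmt1, differed by 3.68 ± 1.09. The histone chaperones Chaf1a and Asf1b differed by 4.44 ± 0.97 and 4.29 ± 0.55. Every S-high mean of Uhrf1 lay above every S-low mean, as for 19.7% of all genes tested. Its middle cells averaged 8.19, 8.68, 7.86 and 8.60.

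Checkpoint and repair genes were higher for 20 of 26 members (median 2.12), with 3 called under the covariates (median 1.95) and 0 without cells of other types (median 1.60). Ung, the uracil-DNA glycosylase that removes uracil from new DNA, averaged 8.32, 7.33, 7.34 and 7.20 in S-high and 2.36, 2.33, 3.35 and 1.96 in S-low cells (5.05 ± 0.82, adjusted p = 0.00184). With the covariates the difference was 4.95 (adjusted p = 0.0324) and without cells of other types 5.54 (adjusted p = 0.0546). The ubiquitin ligase Rad18 differed by 4.12 ± 0.75. The sensor kinases did not pass, with -0.02 for Atr and 1.09 for Atm. Outside the lists, Nup85, a nuclear pore subunit, differed by 5.17 ± 0.47, the largest among called genes with the same sign in every mouse. It was detected in 58 of 58 S-high and 39 of 58 S-low cells.

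The name of the cells was set beside fixed markers, as a description and not an independent check. The rule had already taken the cells highest in G2/M genes out of both groups. Mcm and cyclin E genes stand in both the rule and the markers. All 10 fixed S-phase markers outside the rule (Mcm2, Mcm4, Mcm7, Pcna, Pola1, Cdc45, Gins2, Tyms, Ccne1 and Uhrf1) were higher in S-high than in S-low cells, where 13.2% of all genes were. In the comparison with G2/M cells the same S-phase markers did not pass, with differences from -0.83 (Cdc45) to 1.43 (Ccne1). Of the 6 fixed G2/M markers outside the rule (Ccnb2, Cdc20, Plk1, Cenpe, Cenpf and Ube2c), 0 passed against S-low cells, with differences from -0.01 (Ccnb2) to 0.76 (Cdc20). The G2/M genes of the rule were higher in S-high than in S-low cells, by 0.50 (Espl1) to 3.87 (Top2a). Plk1, the mitotic kinase, averaged 2.08, 1.76, 2.49 and 1.91 in S-high and 2.40, 1.14, 1.81 and 1.62 in S-low cells, which overlap. S-low cells were mixed in such genes. Their mean over the 35 mitosis genes had a median of 1.22 and a highest value of 7.92, against 2.89 and 7.12 in S-high cells. Of 35 mitosis genes, 6 were higher in S-high cells, where 13.2% of all genes were, and the largest differences were those of Cdca8 (2.22 ± 0.77), Birc5 (2.15 ± 1.10) and Tacc3 (2.06 ± 0.78), the first 2 being subunits of the chromosomal passenger complex. The list median was 0.88 against 0.42 for all genes. It was 0.25 with 0 of 35 called under the covariates, and -0.51 with 0 called without cells of other types.

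Replication-dependent histone genes changed less than the replication genes between S-high and S-low cells. Their mRNAs mostly lack a poly(A) tail and are thus poorly seen with oligo-dT priming. Whether priming had a part in the smaller change was not tested. Between S-high and G2/M cells, 13 of 45 of these genes were lower in S-high cells. Against S-low cells, 4 of 45 tested were higher and 1, Hist3h2a, lower (-1.84 ± 0.49). The median was 0.27, while 13.2% of all genes were higher. With the covariates 1 of 45 was called, Hist1h1e, and without cells of other types 0. Hist1h2ap averaged 7.37, 7.42, 7.54 and 8.01 in S-high and 4.50, 3.79, 4.86 and 4.52 in S-low cells (3.17 ± 0.46, adjusted p = 0.00368). The difference was 2.48 with the covariates (adjusted p = 0.138) and 1.07 without cells of other types (adjusted p = 0.478). Hist1h2aj and Hist1h2ae, also H2A genes, differed by 2.14 ± 1.07 and 2.04 ± 1.09. These copies are nearly identical in sequence, so reads may be split among them and the single values are uncertain.

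Among arrest and quiescence genes, 0 of 18 were higher and 2 lower in S-high cells. Over all genes 13.2% were higher and 0.829% lower. Btg1, an antiproliferative gene, averaged 3.33, 4.22, 3.91 and 1.95 in S-high and 6.39, 7.69, 5.54 and 4.3 in S-low cells (-2.63 ± 0.81, adjusted p = 0.010). Its relative Btg2 differed by -1.73 ± 0.83. Neither passed with the covariates (-1.69 and -0.78) or without cells of other types (-1.03 and -0.84). The cyclin-dependent kinase inhibitors Cdkn1a and Cdkn1b did not pass, at 0.78 ± 0.37 and 0.40 ± 0.81.

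Ribosome biogenesis genes were higher for 14 of 18 members (median 2.05), where 13.2% of all genes were. With the covariates (median 1.04) or without cells of other types (median 1.12), however, 0 of 18 were called. Myc, which drives growth genes, averaged 8.69, 8.67, 8.60 and 9.09 in S-high and 4.33, 5.98, 5.45 and 6.23 in S-low cells (3.26 ± 0.75, adjusted p = 0.00484; 1.95 and adjusted p = 0.199 with the covariates). Bop1, a ribosome assembly factor, differed by 2.62 ± 0.56, and Mycn by 2.61 ± 1.53.

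As for the ETP label, Cd34 was detected in 54 of 58 S-high cells and Cd3e, a T-cell receptor complex gene of later stages, in 7 of 58. These are single genes picked from longer lists and do not settle the label. Cd3e was detected in too few cells to be tested. The mean over the 24 T specification genes tested ran from 3.37 to 4.09 over the mice in S-high cells. It ran from 2.41 to 3.66 in S-low and from 3.52 to 3.79 in G2/M cells. Progenitor genes were higher for 7 of 19 members (median 1.04), where 13.2% of all genes were (median 0.42). With the covariates (median -0.10) or without cells of other types (median 0.43), 0 were called. Cd34, a stem and progenitor surface protein, averaged 8.48, 8.08, 5.59 and 8.79 in S-high and 3.41, 3.72, 6.09 and 5.10 in S-low cells (3.15 ± 2.50, adjusted p = 0.0416). The difference was positive in 3 of 4 mice and -0.49 in mouse 2A. It was 0.90 with the covariates (adjusted p = 0.755) and 0.48 without cells of other types (adjusted p = 0.781). In mouse 2A, 10 of 18 members carry markers of other types, and whether they had a part in the sign was not tested. Kit, the stem cell factor receptor, differed by 2.54 ± 1.69 and by 0.36 in mouse 2A. Adgrg1, an adhesion receptor of progenitors, differed by 2.57 ± 2.09, and by -0.10 with the covariates.

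Most T specification genes did not pass, with 2 of 24 higher (median 0.18), where 13.2% of all genes were higher (median 0.42). Cd27, a TNF receptor family member, differed by 2.66 ± 1.09 and Trbc2, a T-cell receptor beta constant gene, by 2.43 ± 1.60; neither was called with the covariates. Il2ra, which marks later stages of T-lineage development, averaged 3.33, 1.90, 2.65 and 2.46 in S-high and 1.41, 3.28, 3.40 and 2.20 in S-low cells, and the groups overlapped (0.01 ± 1.44). The T-lineage factors Tcf7 and Gata3 differed by 1.29 ± 1.94 and 1.38 ± 1.87, and Id2, an inhibitor of E proteins, by 0.07 ± 1.68. Of the NK and innate lymphoid list, Nkg7, a granule protein gene, was the 1 of 22 members higher in S-high cells (2.63 ± 1.35), against 13.2% of all genes. It was not called with the covariates (2.11, adjusted p = 0.199) or without cells of other types (1.20, adjusted p = 0.246). Nkg7 is itself among the NK and innate markers used to choose the cells left out.

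Dendritic genes were lower in S-high cells for 9 of 16 members (median -2.25), where 0.829% of all genes were lower. With the covariates 1 of 16, Spib, was called (median -1.70), and without cells of other types 0 were (median -0.13). Siglech, Pld4, Spib, Ly86, Mpeg1 and Ly6d were the dendritic markers used to choose the cells left out. Their smaller differences there follow from that choice and are not a separate result, and the list median includes these genes. Irf8, a transcription factor of dendritic and monocyte lineages, averaged 2.71, 2.76, 2.68 and 1.98 in S-high and 6.75, 6.12, 5.01 and 6.31 in S-low cells (-3.51 ± 0.89, adjusted p = 0.00462). Without the cells that carry markers of other types the difference was -0.53. Siglech, a plasmacytoid dendritic cell receptor, averaged 1.47, 1.62, 1.14 and 1.28 against 5.83, 4.05, 3.02 and 3.53 (-2.73 ± 1.11), and 0.46 without those cells. Spib, a transcription factor of the same cells, differed by -2.93 ± 1.11 and by -0.51 without them. The mean over the 16 dendritic genes ran from 1.41 to 1.84 over the mice in S-high cells and from 2.97 to 4.52 in S-low cells. Cd68, a lysosomal macrophage protein, was the 1 of 9 macrophage genes that was lower (-2.25 ± 1.25), and 0.03 without those cells. Outside the lists, the lowest differences were taken among called genes with the same sign in every mouse. They were those of Cdh1 (-3.38 ± 2.22), the surface protein Cd7 (-3.20 ± 1.86) and Ighm (-3.05 ± 0.94), which came to -0.62, -1.74 and -0.30 without those cells.

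No basophil and mast (6 tested), B cell (5), erythroid and megakaryocyte (3) or thymic stroma (6) gene passed in this comparison. Over all genes 13.2% were higher and 0.829% lower, and these lists are short. The largest differences in size were 1.10 ± 0.98 for Cpa3, -0.61 ± 1.78 for Cd79b, 1.88 ± 1.91 for Hbb-bs and -0.33 ± 0.71 for Pecam1. Pax5, which defines B cells, was detected in 0 of 58 S-high cells. It was detected in too few of all cells to be tested, so this does not show a trait of the members. The mean over the 5 B cell genes tested reached 3.64 in an S-high cell. Its highest values were 2.45 in middle, 3.27 in S-low and 8.24 in G2/M cells.

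Against the G2/M cells, S-high cells were lower in mitosis genes, and few replication genes were called. Both comparisons use the same S-high cells, so they are not independent. The G2/M genes of the rule had been taken from an earlier clustering of these same cells, so the direction of the mitosis list is not independent evidence. Of 12423 genes, 2 were higher in S-high cells (0.0161%) and 1.08% lower, with a median difference of -0.13 over all genes. With the covariates 3 were higher (0.0241%) and 61 lower (0.491%), and without cells of other types 1 was higher and 55 lower. Leaving out 1 mouse gave 26 calls in all without 1A, 61 without 1B, 29 without 2A and 18 without 2B.

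Ung and Cdt1 were the genes higher in S-high than in G2/M cells. Ung averaged 8.32, 7.33, 7.34 and 7.20 in S-high cells and 4.15, 3.56, 3.57 and 3.80 in G2/M cells (3.78 ± 0.31, adjusted p = 0.00191). The difference was 3.97 with the covariates and 4.22 without cells of other types, and passed in both. Ung was detected in 56 of 58 S-high and 67 of 87 G2/M cells. Cdt1, whose protein is removed once S phase begins, averaged 7.16, 7.17, 6.37 and 6.53 against 5.66, 4.96, 5.03 and 4.79 (1.70 ± 0.38, adjusted p = 0.0362). It was not called with the covariates (1.89, adjusted p = 0.0556) or without cells of other types (1.43, adjusted p = 0.200). E2f1 (2.07 ± 0.90, adjusted p = 0.0547) and Myc (1.55 ± 0.45, adjusted p = 0.0564) did not pass, and both were called with the covariates (2.45 and 2.18).

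The replication lists stayed near the median of all genes in this comparison. Of 30 fork genes 0 were called (median 0.19), of 20 nucleotide synthesis genes 0 (median 0.17), and of 21 licensing genes 1 was higher, Cdt1, and 1 lower, Dbf4 (median 0.34). Dbf4 averaged 2.98, 2.27, 3.06 and 3.28 in S-high and 4.98, 5.08, 4.88 and 5.07 in G2/M cells (-2.11 ± 0.48, adjusted p = 0.0213). Fen1 averaged 9.02, 8.33, 8.29 and 8.54 in G2/M cells, where S-high means had been 8.65, 9.05, 8.84 and 8.22, so these overlap. Ccne1 averaged 5.36, 4.19, 3.38 and 3.69 in G2/M cells, and its difference of 1.43 ± 1.33 did not pass. Mcm2 and Mcm4 were positive in 4 of 4 mice at 1.25 ± 0.55 and 1.21 ± 0.39 and did not pass either. Over all genes 0.0161% were higher and 1.08% lower, so the 0 calls among fork and nucleotide synthesis genes are near that share. A p above the threshold does not show equal levels.

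Several cell cycle genes outside the mitosis list were lower in S-high than in G2/M cells. Ccna2, cyclin A, averaged 5.81, 7.27, 5.52 and 6.99 in S-high and 9.53, 9.06, 9.36 and 9.10 in G2/M cells (-2.87 ± 1.06, adjusted p = 0.0266). It stood between, since S-low cells averaged 3.46, 3.33, 3.77 and 2.90. H2afx, a histone variant of DNA damage signalling, differed by -1.97 ± 0.56, and the repair genes Eme1 and Brip1 by -2.02 ± 0.56 and -1.65 ± 0.25. With the covariates Ccna2 and H2afx were called, at -3.04 and -1.90, and Eme1 and Brip1 were not (adjusted p = 0.126 and 0.0553). Without cells of other types 0 of these 4 genes were called (adjusted p = 0.0629 for Ccna2, 0.0602 for H2afx, 0.0921 for Eme1 and 0.284 for Brip1). Ccng2, cyclin G2, averaged 1.59, 3.92, 2.48 and 0.68 in S-high and 5.89, 6.63, 5.22 and 5.43 in G2/M cells (-3.63 ± 1.06, adjusted p = 0.0113). S-low cells averaged 3.95, 2.64, 4.3 and 5.22 for Ccng2, so S-high cells held the lowest mean of the 4 groups in mice 1A and 2B.

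**Figure D4:**
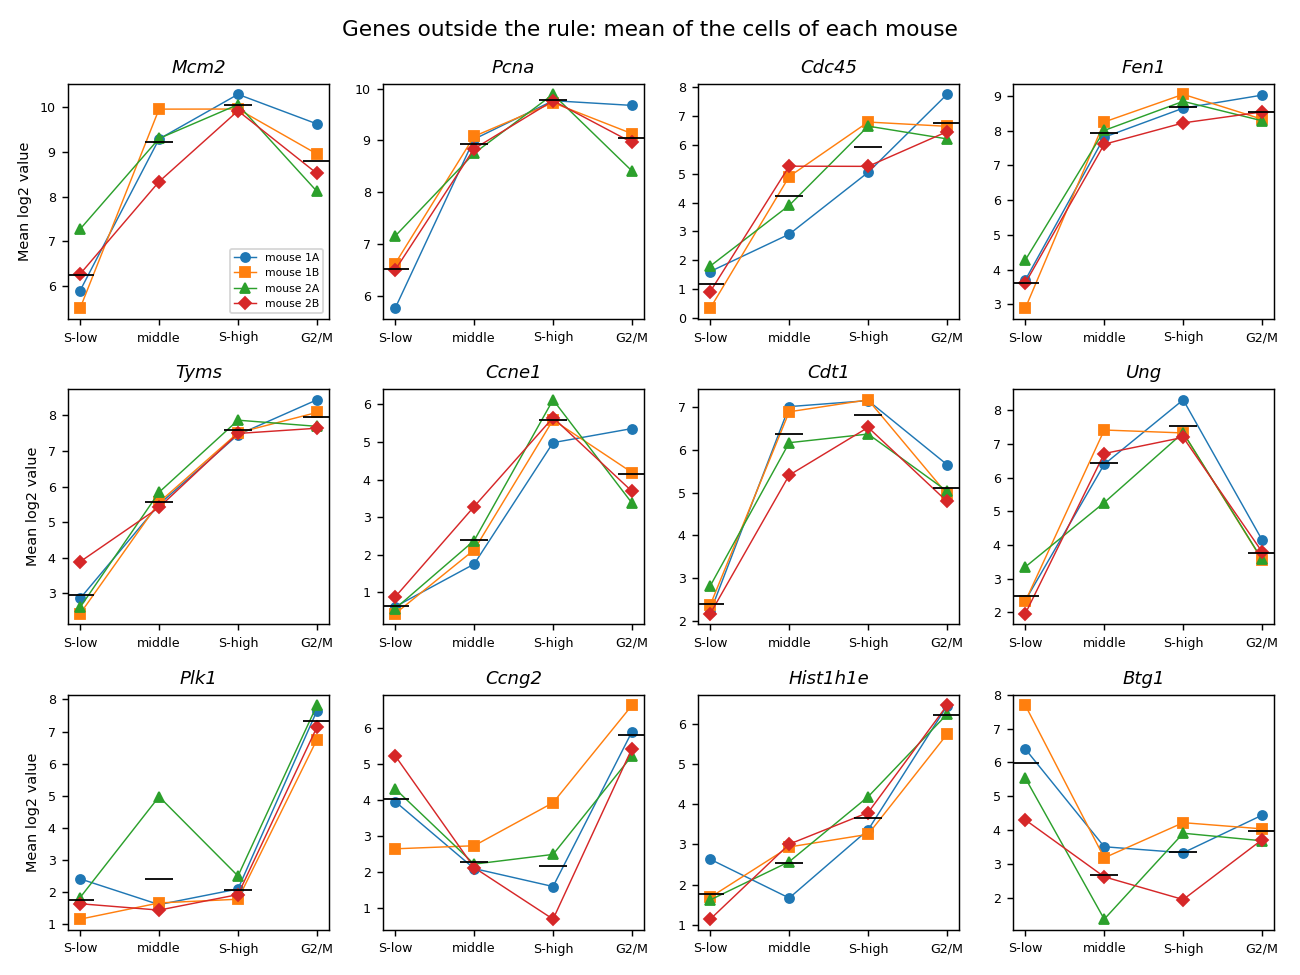
Mean log2 value (y axis) of 12 genes outside the rule over the cells of each mouse in the 4 groups (x axis), with 1 line per mouse and a bar at the mean of the 4 mice. Ung, Cdt1 and Ccne1 have their highest 4-mouse means in S-high cells (7.55, 6.81 and 5.59), while Plk1 stays at 2.06 there and reaches 7.34 in G2/M cells.

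Mitosis genes were lower in S-high cells for 34 of 35 members (median -3.11), with 23 called under the covariates and 19 without cells of other types. In all 35 every S-high mouse mean lay below every G2/M mean, which held for 6.71% of all genes tested. Plk1 averaged 7.65, 6.75, 7.82 and 7.14 in G2/M cells, 5.28 above the S-high mean (-5.28 ± 0.24, adjusted p = 0.000667). Ube2c, the ubiquitin-conjugating enzyme of the anaphase-promoting complex, averaged 2.08, 2.83, 2.16 and 1.71 in S-high and 6.76, 6.49, 7.35 and 6.83 in G2/M cells (-4.67 ± 0.71). The kinetochore and spindle genes Spc25, Kif20a, Bub1, Kif11, Tpx2 and Ndc80 differed by -4.28, -4.27, -4.24, -4.17, -4.09 and -3.87. The unnamed gene ENSMUSG00000111220 followed Kif11 to within 0.000573 in every cell, so reads of the pair cannot be told apart. Cks2, a small Cdk-binding protein, was the 1 member that did not pass (-1.65 ± 0.71, adjusted p = 0.0759).

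Histone genes were lower in S-high than in G2/M cells for 13 of 45 members (median -0.91), and 7 were called with the covariates. Hist1h1e, a linker histone, averaged 3.36, 3.25, 4.18 and 3.79 in S-high and 6.44, 5.74, 6.23 and 6.45 in G2/M cells (-2.57 ± 0.43, adjusted p = 0.0102). Hist1h2ab and Hist1h2ap differed by -2.56 ± 0.57 and -2.34 ± 0.73, with the limits on near-identical copies given above. Progenitor, T specification, NK and innate lymphoid, dendritic, macrophage, basophil and mast, B cell, erythroid and stroma lists had 0 genes called between S-high and G2/M cells. Over all genes 0.0161% were higher and 1.08% lower, so 0 calls is near that share and does not show equal levels. The largest differences in size in these lists included -1.27 ± 0.76 for Il7r, the interleukin 7 receptor, and -1.06 ± 1.04 for Tcf4, a dendritic cell factor.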

How the data were processed

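The authors' deposited matrix holds log2 expression values for 13737 features, from -4.13 to 15.99. The submitters' processing notes name Salmon and GRCm38 and give no version. How values were normalized, corrected for batch or filtered: not given in the sources used here. A table of gene names matched 13578 features. Cells fall into 4 sets that share exact values. A value that at least 2 cells of a set repeat as the gene's lowest marks no reads, and higher values (tolerance 1e-06) count as detected. Mice 2A and 2B draw on the same sets. Genes detected in at least 10% of cells were tested, without the 16 rule genes, on the 4 within-mouse differences with limma 3.58.1 in R 4.3.3 (intercept only, two-sided, Benjamini-Hochberg at 0.05). A mouse needed at least 5 cells of each group, or 4 where cells of other types were left out. Named genes were the 10 largest changes of one sign in all mice in each direction, the 3 largest called members of each list (or 1 or 2 uncalled ones), the fixed markers and some cell cycle and lineage genes; further list members were named after their values were seen. One gene that this rule names is not reported here. The members and lists were chosen with earlier results of these data known. The fit was checked on S-high and S-low cells with labels shuffled inside each mouse and known shifts added to some genes. The shuffled groups do not carry the depth and cell type differences of the real groups. Depth is unknown because read counts are not in the matrix. Alternatives changed the covariates, filter, selection, unit of replication, wells and cells of other types.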

Additional observations from a re-analysis of the deposited data

Results flagged for a closer look

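Of the named gene differences examined for a mouse far from the other 3, 7 stood out (4.83%), where chance gives about 1 in 20. Against S-low cells, the difference was 5.92 in mouse 1A for Wdhd1, 5.10 in mouse 2A for Asf1b, -1.38 in mouse 2A for Pecam1 and 3.67 in mouse 2B for Hist1h2ae. Wdhd1 and Asf1b lay between 4.33 and 4.43 and between 3.94 and 4.11 in the other mice. Against G2/M cells, it was -1.46 in mouse 1B for Kif22, -2.85 in mouse 1A for Eme1 and 0.0905 in mouse 2B for Ebf1. Kif22, a mitotic motor gene, lay between -4.88 and -4.41 in the other 3 mice.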

How the results depend on the processing

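Of 12423 genes, 1743 were called between S-high and S-low cells. The count was 50 with detected genes and plate as covariates, 50 with aligned levels and detected genes, 750 with sets of cells in place of mice, and 593 with scores adjusted for detected genes. Leaving out a mouse gave 387 (without 1B) to 1310 (without 2A), with 582 without 1A and 541 without 2B. Without cells of other types it was 0, with a minimum of 5 cells (3 mice), of 4 cells, or with covariates. A rule of 1 sign in every mouse and a difference of at least 1 counted 2934. For S-high against G2/M cells, 2 genes were higher and 1.08% lower; the count was 64 with covariates, 63 with aligned levels and detected genes, 87 with sets, 51 without a detection filter, 90 with the rule inside each mouse, 55 with adjusted scores, 59 without the first 8 wells, 56 without cells of other types at either minimum and 18 with covariates too. Leaving out a mouse gave 18 (2B), 26 (1A), 29 (2A) and 61 (1B), and the sign rule counted 714. Fewer mice or cells entered several of these fits; the cause of the other shifts was not tested. The difference in detected genes stayed positive in each setting, from 665.2 to 1100.3. Signs turned without cells of other types for Ighm (0.01 with 3 mice), Atp1b1 (0.67, 0.32 and 0.12), Siglech (0.55, 0.46 and 0.47), Ctsh (0.23, 0.17 and 0.18) and Cd68 (0.03 and 0.30), and with covariates too for Ccna2 (-0.04), Cdca8 (-1.0), Tacc3 (-0.48) and Cd34 (-0.25). Adgrg1 turned with covariates (-0.10) and with aligned levels and detected genes (-0.29). Siglech was among the markers that chose the cells left out, so its turn there is not a separate result. The alternatives without cells of other types, and aligned levels with detected genes, were chosen after seeing the data. The planned version, which took out cells with a share of 0.5 of a type's markers merely detected, was not run, because 86.6% of cells met it. Each comparison is paired by mouse.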
